A study of Mus musculus with 30 samples.

Results

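The nuclear genes for the subunits of oxidative phosphorylation were followed in 3 pools of mouse spinal motoneurons. Members were the probe sets with a single symbol in the array annotation that begins with Ndufa, Ndufb, Ndufc, Ndufs, Ndufv, Uqcr or Atp5, or that is Sdha to Sdhd, Cyc1, Cycs or a Cox symbol numbered 4 to 8. This gave 101 of 12422 probe sets, for 73 of 8251 genes. Complex I had 31 of these genes, complex II 4, complex III 8, complex IV 15, complex V 14 and cytochrome c 1. The symbol pattern also took in Ndufaf1 and Ndufaf4, which are assembly factors of complex I and not subunits. A further 10 probe sets with several symbols were left out, and genes such as Ndufs5, Ndufs6, Ndufb4, Ndufa11 and Cox7c are therefore not described.

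Oxidative phosphorylation passes electrons from NADH (through complex I) and succinate (through complex II) to ubiquinone, then by complex III, the mobile carrier cytochrome c and complex IV to oxygen. Complexes I, III and IV pump protons across the inner mitochondrial membrane, and the ATP synthase, complex V, uses the return flow to make ATP. Each complex but II mixes the nuclear-encoded subunits described here with subunits encoded in mitochondrial DNA, and motoneurons draw much of their ATP from this system.

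The cells came by laser capture from the spinal cords of 5 adult mice, all of them sham-operated controls. The IML pool was taken from the intermediolateral column, where autonomic preganglionic motoneurons lie, and the LMN and MMN pools were lateral and medial motoneurons, called somatic here. Every animal gave all 3 pools, 400 captures made up each one, and its RNA was divided into 2 portions that were amplified and hybridised to separate Affymetrix arrays, for 30 arrays and 15 samples. The labels give neither the strain, the sex nor an exact age, and they name no marker by which cells were recognised. Values are log2 intensities per probe set, averaged over the 2 arrays of a sample, and n is 5 animals for each pool. A difference is the log2 level in the first pool less that in the second, within animals, with a standard error (SE) from the limma model, and a member was called when its p adjusted over all probe sets was under 0.05. In such pooled captures, fewer cells of a type and less RNA per cell cannot be told apart.

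The pools did not hold motoneuron RNA alone, and several markers of motoneurons and of other cells differed between them. Of 7 motoneuron markers measured, Nefh, Ret and Nefl were called lower in IML than in somatic samples, and the summed intensity of the list ran from 5066.8 to 8228.7 in IML, 10062 to 18447.1 in LMN and 8515.2 to 12404 in MMN. Nefh and Nefm, the brightest of the list at means of 12.11 and 11.47, weigh most in that sum. Slc18a3, the vesicular acetylcholine transporter, averaged 7.18 in IML, 8.73 in LMN and 8.30 in MMN, above the median probe set of the array, 7.10, in all pools. The motoneuron transcription factor gene Isl1 averaged 5.64 over all samples. It was the only 1 of the 7 with a positive difference from somatic samples, 0.14 ± 0.085 (SE), and was not called. Meningeal and fibroblast markers were higher in IML, with 7 of 15 called, and their summed intensity ran from 22531.6 to 30190.5 in IML, 8585.6 to 21249.3 in LMN and 10903 to 33563.5 in MMN. Microglia and macrophage markers were called higher in IML in 7 of 13 cases. Over all probe sets, 3.44% were called higher in IML than in somatic samples and 2.09% lower. Nothing is read from a marker count of 1. Astrocyte markers were called higher in 1 of 11 cases, endothelial and mural markers in 1 of 13, oligodendrocyte markers in 0 of 9 (2 at an unadjusted p under 0.05) and red blood cell markers in 0 of 3 (1 at an unadjusted p under 0.05). The IML sample of animal 3 had a summed red blood cell intensity of 6530.8, against 1401.5 to 2535.4 in the other IML samples. The part of these cells in the values below was not tested.

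Between IML and somatic samples, 3 member probe sets were called, all lower in IML: Cycs, Ndufab1 and a probe set of Atp5c1. They were 2.97% of the members, beside 2.09% of all probe sets called lower, so the share of members called was near the background. No member was called higher, beside 3.44% of all probe sets. The differences were small, between 1.21-fold and 1.26-fold lower. Below the threshold the members lay mostly on 1 side. The difference was negative for 68 of 73 genes, while 53.6% of all probe sets were negative, and the median was -0.15 over the genes against -0.01 over all probe sets. Leaving out animal 3 gave a median of -0.08 over the genes. At an unadjusted p under 0.05, 34 of 101 member probe sets were lower, or 33.7% beside 9.78% of all probe sets, and 1 was higher, or 0.99% beside 10.9%. IML was lower than the mean of both somatic pools in 5 of 5 animals for 26 of 101 member probe sets, or 25.7% beside 7.94%. Most member genes were bright, so probe sets of like level are the nearer background. Of the 6211 probe sets at or above the median level, 200 were called lower and 3537 were negative. Among them 897 were lower at an unadjusted p under 0.05 and 676 in 5 of 5 animals. For the 64 member genes at that level the same 4 counts were 3, 60, 24 and 19. When the average fibroblast and meningeal marker level of each sample entered the model, 0 members were called and the median over the genes became 0.02, in a fit that called 0 of all probe sets and whose median SE was 2.33 times as large. The count of called members was 0 without the animal as a block and 7, all lower, after quantile normalization of the arrays.

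**Figure D1:**
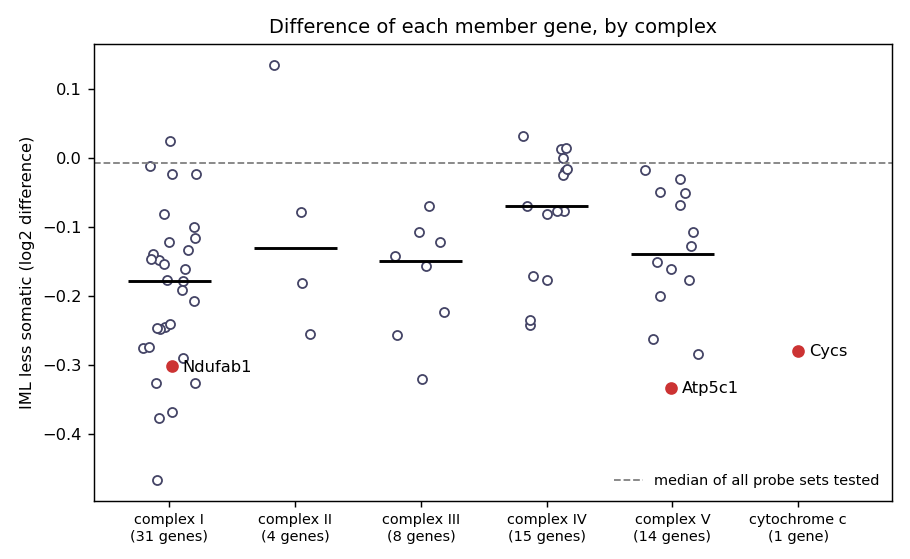
Fitted difference between IML and somatic samples (log2, vertical axis) for each of the 73 member genes, grouped by complex. Each point is a gene through its brightest probe set, filled and named where called, bars are the medians of each complex, and the dashed line is the median of all probe sets. The points of complexes III and V all lie below 0, and the median of complex IV, -0.07, is the nearest to 0.

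Cycs encodes the somatic form of cytochrome c, the soluble carrier between complexes III and IV. Its level in animals 1 to 5 was 9.13, 9.29, 9.50, 9.40 and 9.59 in IML. In the LMN samples of the same animals it was 9.33, 9.67, 9.89, 9.92 and 9.79, and in the MMN samples 9.38, 9.48, 9.81, 9.61 and 9.72. The pools overlapped across animals, and animal 1 was low in all of them, but IML was the lowest of the 3 pools in every animal. The difference from somatic samples was -0.28 ± 0.05 (SE, limma, adjusted p = 0.012), or 1.21-fold lower, and the animals lay between -0.36 and -0.17. Without animal 3 it was -0.26 with an adjusted p of 0.0727 and was no longer called.

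Ndufab1 encodes the mitochondrial acyl carrier protein, an accessory subunit of complex I that also serves lipoic acid and iron-sulphur cluster synthesis. Its level in animals 1 to 5 was 10.36, 9.71, 10.12, 10.36 and 10.32 in IML, and 10.54, 10.07, 10.71, 10.75 and 10.71 in LMN. The MMN samples had 10.35, 9.85, 10.72, 10.44 and 10.64. Animal 2 was the lowest animal in every pool, and IML was below LMN in all 5 animals and below MMN in 4, with animal 1 the exception. Against somatic samples the difference was -0.30 ± 0.07 (SE, limma, adjusted p = 0.0261). The call was lost without animals 2, 3, 4 or 5, with adjusted p-values between 0.0598 and 0.116.

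Atp5c1 encodes the gamma subunit of ATP synthase, the central shaft that turns within the catalytic head. Its brighter probe set measured 10.99, 11.30, 11.17, 11.09 and 11.31 in the IML samples of animals 1 to 5. The same probe set gave 11.37, 11.51, 11.66, 11.33 and 11.37 in LMN and 11.53, 11.35, 11.87, 11.43 and 11.65 in MMN. All 5 IML samples lay below all 5 samples of either somatic pool, so the pools did not overlap. The difference was -0.33 ± 0.07 (SE, limma, adjusted p = 0.0243), or 1.26-fold lower. A dimmer probe set of the same gene gave -0.34 ± 0.11 with an adjusted p of 0.112 and was not called. The brighter one carries a suffix that marks possible binding to related transcripts, and its call was lost without animals 1, 3, 4 or 5, with adjusted p-values between 0.0699 and 0.114.

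**Figure D2:**
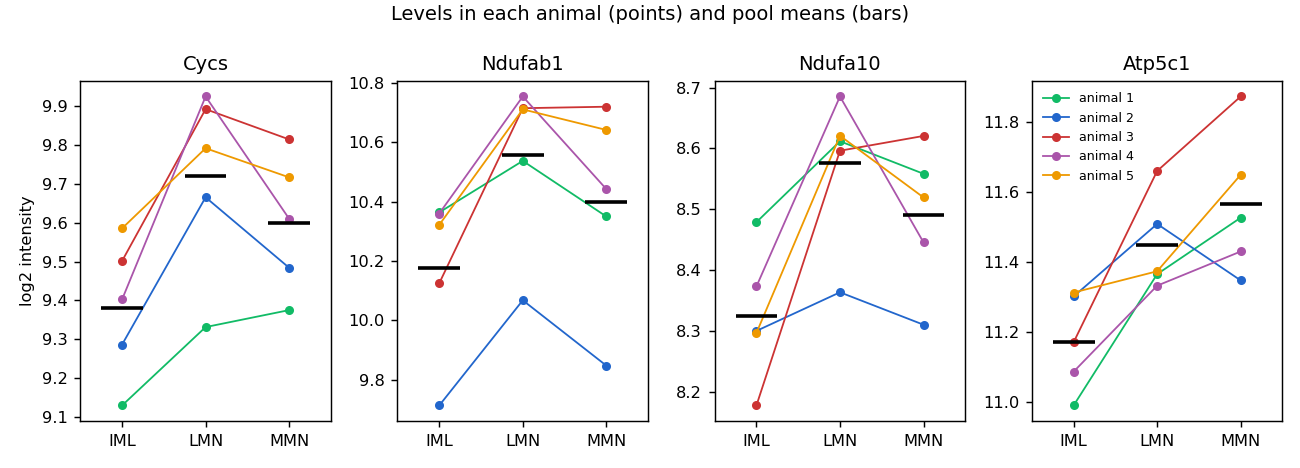
Log2 intensity (vertical axes, a different range in each panel) of Cycs, Ndufab1, Ndufa10 and the brighter probe set of Atp5c1 in the 3 pools. Points joined by lines are the samples of 1 animal, and bars are means over 5 animals. Every line rises from IML to LMN in all 4 panels.

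The promoters of the members were read for letters that match motifs of factors known to act on respiratory chain genes. RefSeq (GRCm38.p6) gave 64 promoters, from 250 bases before to 50 after a start, for 59 of the 73 genes. Both strands were searched for the NRF1 motif, for CCGGAAG (ETS factors such as GABPA) and for AANATGGC (YY1), and no matches of different motifs overlapped. The NRF1 letters were in 20.3% of member promoters and 4.6% of all 32851 promoters of the same length. For the ETS letters the shares were 25% and 8.86%, and for the YY1 letters 20.3% and 6.05%. At least 1 of the 3 was present in 59.4% of member promoters and 17.4% of all promoters. The set of all promoters was not matched for base composition or expression, and the shares were not tested. Among genes with a called probe set in any comparison, Atp5c1 held the NRF1 letters and Ndufaf1 the ETS letters. For Cycs, Ndufab1, Ndufa10 and Cox6b2 none of the 3 was found in these windows. The windows below show those matches and, for complexes I and III, the uncalled gene with the lowest difference among those with a match before the start, Ndufb10 and Uqcr11. Each is a stretch of 30 bases on the gene's strand with the matching letters in capitals, and the letters in Ndufb10 and Atp5c1 match the motif on the opposite strand.
Atp5c1, NRF1, chr2:10080433-10080462, minus strand: cgcctgagctcccGCGCACGCGCactgagt
Ndufaf1, ETS, chr2:119662835-119662864, minus strand: gcgggaccacaaCCGGAAGcgtggcgaacc
Ndufb10, YY1, chr17:24724603-24724632, minus strand: tactcttccaaGCCATGTTcaccatattcc
Uqcr11, ETS, chr10:80406869-80406898, minus strand: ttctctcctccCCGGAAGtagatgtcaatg
These are matches of letters only, and binding was not measured.

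Complex I, the NADH dehydrogenase, had the lowest median of the 5 complexes, -0.18 over 31 genes, and 30 were negative, with Ndufab1 called. The lowest was Ndufb8, an accessory subunit of the membrane arm, at 9.36, 9.19, 8.65, 9.61 and 9.37 in the IML samples of animals 1 to 5. It was 9.86, 9.45, 9.70, 9.84 and 9.57 in LMN and 10.04, 9.39, 9.94, 9.85 and 9.41 in MMN. IML was the lowest pool in each animal, by 0.11 to 1.17 below the somatic mean, and the IML sample of animal 3 was the lowest. The difference, -0.47 ± 0.13 (SE), was the lowest of all members, yet its adjusted p was 0.056 and it was not called. Ndufb10, another membrane arm subunit, followed at -0.38 ± 0.12 (adjusted p = 0.102, limma). At the other end, Ndufa1 had 0.02 ± 0.06 and Ndufa12 -0.01 ± 0.05, both accessory subunits. Ndufa10, an accessory subunit of the membrane arm, was lower in 5 of 5 animals at -0.21 ± 0.06 (adjusted p = 0.0587, limma).

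Complex II, succinate dehydrogenase, also serves the citrate cycle, and 3 of its 4 genes were negative. The 4 were not tested against each other. The membrane anchor Sdhc had -0.25 ± 0.10 and was lower in 5 of 5 animals, while the other anchor, Sdhd, had -0.08 ± 0.09. The iron-sulphur subunit Sdhb had -0.18 ± 0.10. Sdha, the flavoprotein that oxidises succinate, had 0.13 ± 0.14, the highest difference of any member gene through its brightest probe set. Its IML levels ran from 8.57 to 10.10 and its LMN levels from 8.50 to 10.10, so samples within a pool differed far more than the pools. The SD between its paired arrays was 0.42, beside 0.66 between animals within a pool. None of the 4 was called, and the adjusted p-values from limma lay between 0.189 and 0.685.

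Complex III, the ubiquinol to cytochrome c reductase, had negative differences for all 8 genes, a median of -0.15 and none called (2 at an unadjusted p under 0.05). Uqcr11, a small accessory subunit, had -0.32 ± 0.14. Its IML sample of animal 3 was at 8.20, and the other IML samples were between 8.59 and 9.74. Uqcrc1, a core subunit of the matrix side, had -0.26 ± 0.12, and the other core subunit, Uqcrc2, had -0.07 ± 0.10. Uqcrb, which takes part in binding ubiquinone, had -0.11 ± 0.08. Adjusted p-values for these 4 genes were between 0.233 and 0.752 (limma).

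Complex IV, cytochrome c oxidase, had the median nearest 0, at -0.07, with 12 of 15 genes negative and none called (2 at an unadjusted p under 0.05). Its highest difference, 0.03, was also the highest among the 9 member genes below the median level of the array. The part of dim probe sets in the median of complex IV was not tested. Several subunits of complex IV exist as tissue forms, and those measured as pairs were set side by side. The ubiquitous form Cox7a2 had -0.24 ± 0.09 and ran from 10.79 to 11.23 in IML, 11.12 to 11.48 in LMN and 11.01 to 11.71 in MMN, while the heart and muscle form Cox7a1 had -0.03 ± 0.06. Of the other pairs, Cox6a1 had -0.08 ± 0.07 and its muscle form Cox6a2 0.01 ± 0.05. Cox8a had 0.03 ± 0.06, and its muscle form Cox8b had 0.01 ± 0.06 through the brighter of its probe sets, which disagreed in sign. Cox6b1 had -0.07 ± 0.07 and the testis form Cox6b2 -0.08 ± 0.06 through its brightest probe set. Cox7b, a small subunit, had -0.24 ± 0.12. Adjusted p-values of these genes ranged from 0.145 to 0.942 (limma), and their differences were not told from 0.

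Complex V, the ATP synthase, had negative differences for all 14 genes and a median of -0.14. Besides Atp5c1, Atp5mpl, a small protein of the membrane part, had -0.29 ± 0.09 and was lower in 5 of 5 animals (adjusted p = 0.0923, limma). Atp5l, subunit g of the membrane part, had -0.03 ± 0.12, and Atp5e, the epsilon subunit of the central stalk, had -0.02 ± 0.17. The SE of Atp5e reflects animals that went opposite ways, from 0.72 in animal 1 to -0.80 in animal 3. Atp5g1 and Atp5g2, which encode the same mature ring subunit c behind different import sequences, had -0.07 ± 0.06 and -0.05 ± 0.08, and for each gene a dimmer probe set had the opposite sign.

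Of the 21 member genes with several probe sets, 13 had the same sign in all of them and 8 did not. The 9 genes whose brightest probe set lay below the median level of the array, 7.10, had a median difference of -0.05, against -0.16 for the other 64.

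The animals did not contribute equally. The median over the 73 genes was 0.04 in animal 1, -0.14 in animal 2, -0.48 in animal 3, -0.14 in animal 4 and -0.08 in animal 5, while the medians over all probe sets lay between -0.05 and 0.02. Negative differences were counted for 33, 62, 67, 61 and 53 of the 73 genes in animals 1 to 5. Animal 3 stood apart on both sides: relative to each gene's mean over the 15 samples, its IML sample had a median of -0.22, and its LMN and MMN samples had 0.19 and 0.27, the highest of all samples. Its IML sample was also the one with the high red blood cell markers, whose part was not tested. The separate arrays repeated these medians, with -0.43 and -0.51 in animal 3 and 0.01 and 0.02 in animal 1 for technical sets 1 and 2. Without animal 3 the median over the members was -0.08, 61 genes were negative and 0 member probe sets were called.

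**Figure D3:**
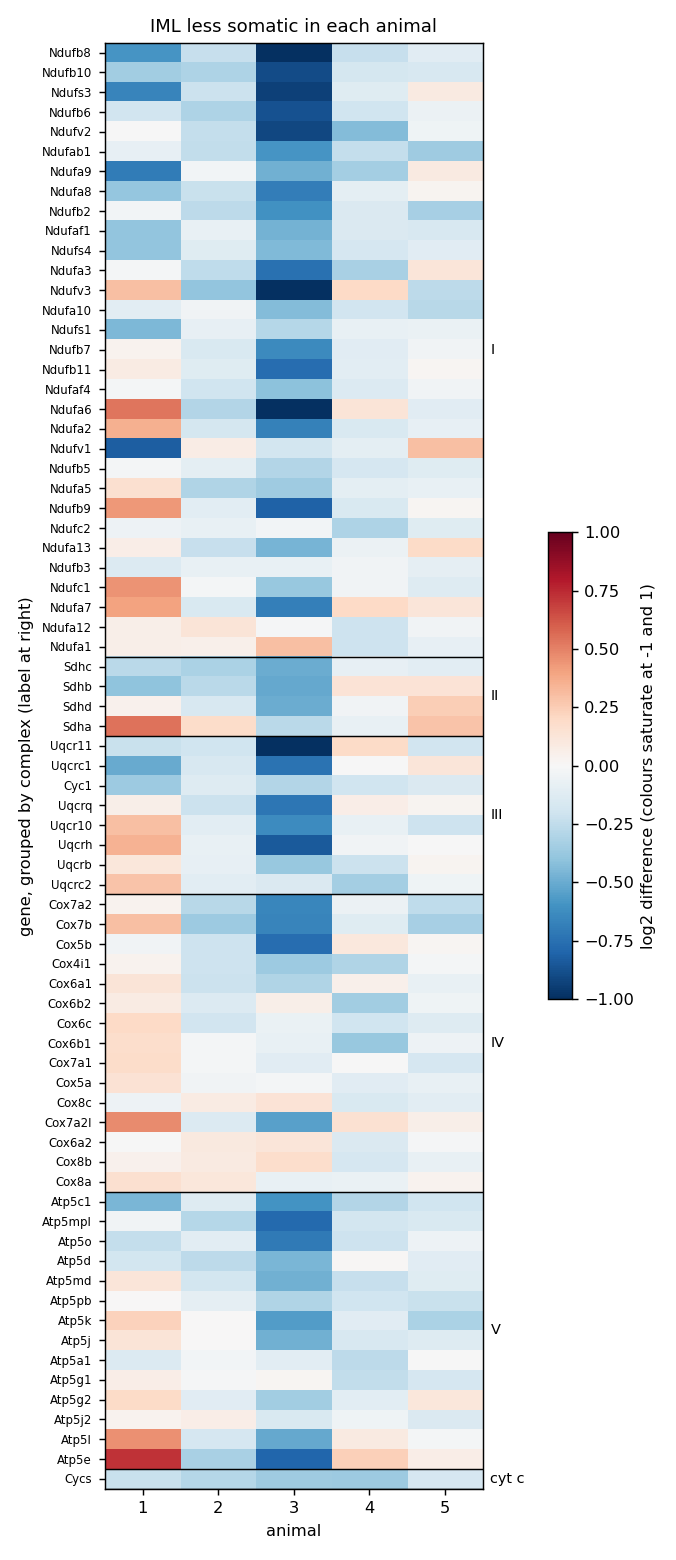
Difference between the IML sample and the mean of the LMN and MMN samples (log2, colour) for the 73 member genes in rows and the 5 animals in columns, ordered within each complex by the fitted difference. Blue is lower in IML and red is higher, and colours saturate at -1 and 1. Animal 3 is the darkest blue column, and animal 1 mixes both colours.

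In animal 1 the members split. Named here after their values were seen, Ndufv1, which binds NADH, had -0.82 in that animal, and the core subunits Ndufs3 and Ndufs1 had -0.66 and -0.45. Atp5e had 0.72, Sdha 0.54 and the accessory subunit Ndufa6 0.53 in the same animal. In animal 3 both Ndufv1 and Ndufa6 were negative, at -0.18 and -1.03. The spread was wider for the members than for the array as a whole, with no test made. That background was not matched for level, and most member genes were bright, so the width is not read as particular to them. The median SD between the paired arrays was 0.155 for the members and 0.132 over all probe sets, the median SD between animals within a pool was 0.233 and 0.171, and the median SE of the difference was 0.0899 and 0.0634.

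Against LMN alone, 5 member probe sets were called, 4 lower (3.96%, beside 3.53% of all probe sets called lower) and 1 higher (0.99%, beside 5.46%). Cycs was lower by 1.27-fold, at -0.34 ± 0.06 (SE, limma, adjusted p = 0.00601), and kept its call without any single animal. Its call was lost with technical set 2 alone (adjusted p = 0.1215, limma). The same held without the animal as a block and with the fibroblast and meningeal marker level in the model. Ndufab1 had -0.38 ± 0.08 (adjusted p = 0.0139, limma), or 1.30-fold lower, and of the fits without 1 animal it lost the call only without animal 5, at an adjusted p of 0.0655. It also lost the call without the animal as a block and with the fibroblast and meningeal marker level in the model. Ndufa10 measured 8.48, 8.30, 8.18, 8.37 and 8.30 in IML and 8.61, 8.36, 8.60, 8.69 and 8.62 in LMN in animals 1 to 5. IML was the lower of both in each animal, by as little as 0.06 in animal 2, where the LMN sample was low. Its difference was -0.25 ± 0.07 (adjusted p = 0.0383, limma), which was lost without animals 1, 3, 4 or 5, with adjusted p-values between 0.0696 and 0.161.

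The other called members were dim probe sets. For Ndufaf1, the assembly factor, the dim probe set had 6.10, 5.74, 6.13, 6.28 and 6.12 in IML and 6.36, 6.09, 6.35, 6.73 and 6.36 in LMN. It was lower in each animal, at -0.30 ± 0.07 (adjusted p = 0.0183, limma), and was lost without animals 1, 2 or 3 (0.054 to 0.0657). The brighter probe set of Ndufaf1 had -0.31 ± 0.09 with an adjusted p of 0.0575. For Cox6b2, a dim probe set had 6.64, 5.88, 6.23, 5.89 and 5.88 in IML and 5.83, 5.86, 5.62, 5.80 and 5.55 in LMN, a difference of 0.37 ± 0.10 (adjusted p = 0.0458, limma). The brightest probe set of Cox6b2 had the opposite sign, -0.17 ± 0.07, so the gene has no settled direction. That call was lost without animals 1, 3, 4 or 5, with adjusted p-values between 0.056 and 0.19. Over the 73 genes, 65 were negative against LMN, beside 57% of all probe sets, with a median of -0.12. That median was -0.19 without animal 1 and 0.06 with the marker level in the model, where 0 members were called. At an unadjusted p under 0.05 the lower member probe sets numbered 24 (23.8%, beside 12.1%) and the higher ones 1 (0.99%, beside 11.4%).

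Against MMN alone, 0 member probe sets were called by limma, beside 0.346% of all probe sets called in either direction. At an unadjusted p under 0.05, 26 were lower (25.7%, beside 5.5%) and 0 higher (beside 6.84%). The median over the genes was -0.18 and 64 of 73 were negative, beside 47.4% of all probe sets. It was -0.08 without animal 3, and -0.03 with 44 negative when the fibroblast and meningeal marker level entered the model. Atp5c1 came nearest to the threshold among the called genes, at -0.39 ± 0.08 (adjusted p = 0.09, limma) and lower in 5 of 5 animals. Cycs had -0.22 ± 0.06 (adjusted p = 0.178, limma), Ndufab1 -0.22 ± 0.08 and Ndufa10 -0.17 ± 0.07. Ndufb8 had -0.49 ± 0.15 (adjusted p = 0.221, limma). The comparisons of IML with LMN, MMN and both share the IML samples and are not independent.

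Between the somatic pools, LMN and MMN, 0 member probe sets were called by limma, beside 0.0564% of all probe sets. At an unadjusted p under 0.05, 5 were higher in LMN (4.95%, beside 6.54%) and 0 lower (beside 5.11%). Of the 5, 4 were dimmer probe sets of their genes. The median was -0.02, 41 of 73 genes were negative beside 42.2% of all probe sets, and with the marker level in the model the median was -0.12 and 61 were negative. The differences of the genes ran from -0.23 to 0.18. Cycs had 0.12 ± 0.06, Ndufab1 0.16 ± 0.08 and Atp5c1 -0.12 ± 0.08, each within the spread of the animals.

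Other genes were read from lists of mitochondrial and related functions, each gene by its brightest probe set. The lists also held genes whose products are not mainly mitochondrial, such as Sod1, Cat, Ckb and Ckm. Their counts stand beside 2.09% of all probe sets called lower and 53.6% negative against somatic samples, and 3.53% called lower against LMN. No list's count was tested against those shares, and nothing is read from counts of 1 or 2 genes. Assembly factors had 1 of 16 measured genes called lower than in somatic samples, Lrpprc at -0.35 ± 0.09, a protein that stabilises mitochondrial messenger RNAs. Their median was -0.06, with 12 of 16 negative. The citrate cycle and pyruvate dehydrogenase list had 2 of 20 called lower, the kinase Pdk3 (-0.56 ± 0.07) and the succinyl-CoA synthetase subunit Sucla2 (-0.21 ± 0.04), with 16 negative and a median of -0.18. Against LMN that list had 5 called lower, among them the pyruvate dehydrogenase subunit Dlat (-0.37 ± 0.09), and 1 higher, the isocitrate dehydrogenase Idh2 (0.47 ± 0.09). Adjusted p-values of these called genes were at most 0.0469 (limma).

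The list of carriers, porins and energy transfer had 2 of 21 called lower than in somatic samples, the citrate carrier Slc25a1 (-0.47 ± 0.11) and the carnitine carrier Slc25a20 (-0.26 ± 0.07), with a median of -0.13 and 16 negative. Against LMN the porin Vdac2 was also lower (-0.37 ± 0.08). The mitochondrial ribosome list had 1 of 39 called lower, Mrpl12 (-0.30 ± 0.07), with 36 negative and a median of -0.12, and against LMN Mrps14 was also lower (-0.44 ± 0.11). The import list had 1 of 22, the chaperone Timm10 (-0.22 ± 0.06), with 21 negative and a median of -0.15. Among antioxidant enzymes 1 of 9 was called lower, the peroxiredoxin Prdx3 (-0.25 ± 0.06), with a median of -0.07. Adjusted p-values of these genes called against somatic samples were between 0.0292 and 0.0459, and against LMN those of Vdac2 and Mrps14 were 0.018 and 0.0354 (limma). Regulators of mitochondrial biogenesis had 0 of 19 called, with 1 lower and 1 higher at an unadjusted p under 0.05 and a median of -0.05. Most of these regulators averaged below the median level of the array, 7.10, among them Tfam at 3.69 and Ppargc1a at 4.45. Their small differences do not show that they were unchanged. The ribosome and import lists were also lowest in animal 3, at -0.44 and -0.46, beside -0.48 for the respiratory chain members. In the citrate cycle list animals 1 and 3 were both low, at -0.32 and -0.33.

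**Figure D4:**
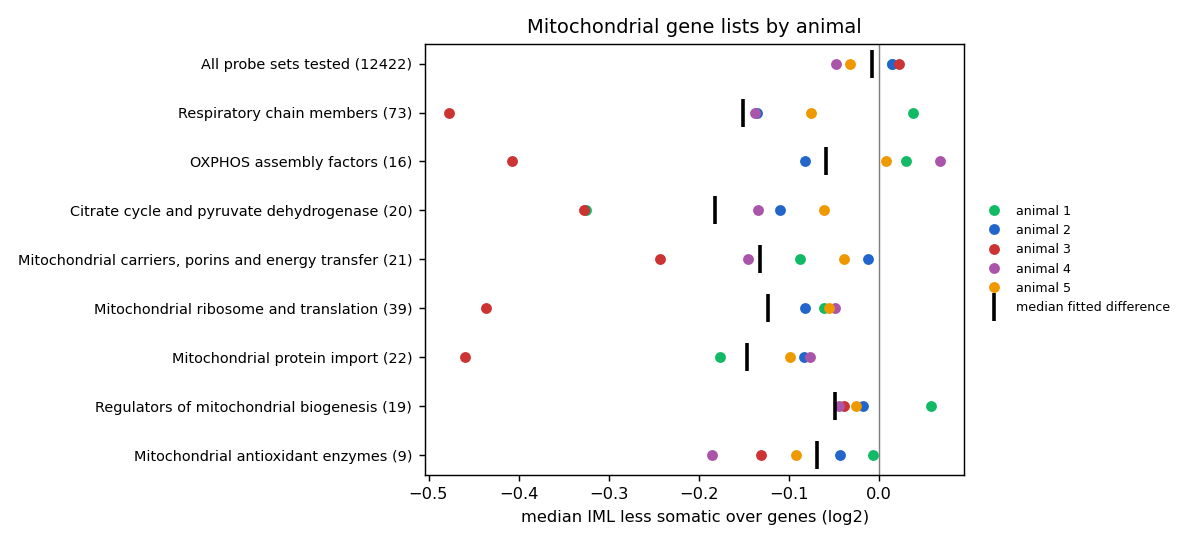
Median difference between IML and somatic samples (log2, horizontal axis) for the respiratory chain members, 7 other mitochondrial gene lists and all probe sets, with the number of genes or probe sets in parentheses. Coloured points are animals and black bars are medians of the fitted differences. In the members, assembly factors, carriers, ribosome and import lists the lowest animal is animal 3, while all probe sets stay near 0.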

How the data were processed

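The deposited values are probe set intensities on a linear scale, normalized by the authors with R-pack and returned from logs, per the labels. The sources used here give neither its method and version nor detection calls, so dim values have no background to be set against. Array medians ran from 131.69 to 145.908. After removal of 66 control probe sets, 12422 remained, with no filter on low values, so every member was tested.

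Values were taken to log2 and the 2 arrays of a sample averaged. Models were fitted with limma 3.58.1 (R 4.3.3), using pool and animal as fixed terms in all 15 samples and eBayes, two-sided, with Benjamini-Hochberg adjustment. The animal was a block because, per the labels, each animal gave every pool. Deviations from the pool means correlated within animals in all 15 pairs (0.288 to 0.747). Pairs from different animals were not computed beside them, so the pairing rests on the labels. Without the animal as a block, 0 members were called in any comparison.

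The brightest probe set stands for a gene. Members and lists were chosen with earlier results of these data known. Named genes were called members, the 2 lowest and 2 highest of each complex, tissue form pairs, and from each list up to 4 called genes by smallest p. The steps were also run on simulated data with added differences larger than that of any called member. That run does not bear on calls of the size reported here.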

Additional observations from a re-analysis of the deposited data

Results flagged for a closer look

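In 14 of 120 groups of 5 values checked, over the named members and the medians of the complexes, 1 sample lay far from the other 4 (a gap of more than 0.71 of the whole range). Chance alone gives this in about 1 of 20 independent groups. The groups here were not independent, since the medians share genes and samples, so no excess is read from the 14. The values are given without an explanation.

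Animal 3 was the low animal in the flagged medians between IML and other pools for all members and for complexes I and III. Against MMN its median over all member genes was -0.56, with the other animals between -0.12 and 0.05. Over complex I its median was -0.59 against somatic samples and -0.64 against MMN. Over complex III the medians were -0.67 and -0.73. Animal 1 was the high animal for complex IV, at 0.13 against somatic samples and 0.16 against MMN, where the others were below 0. In that complex animal 3 was not the lowest, at -0.08 against somatic samples beside -0.14 in animal 2. For complex II, animal 2 had a median of 0.19 between LMN and MMN and the other animals were negative.

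Among single members, the LMN sample of animal 2 was low for Ndufa10 at 8.36, where the others lay between 8.60 and 8.69, and for Uqcr11 at 8.83. The MMN sample of animal 2 was low for Cox6a1 at 11.87. The LMN sample of animal 1 was low for Sdhc at 10.25. The IML sample of animal 1 was high for Cox6b1 at 7.78 and for Atp5g1 at 8.67.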

How the results depend on the processing

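Against somatic samples, 3 members were called. The count was 0 with no replicate block, 6 with technical set 2 alone, 7 after quantile normalization, 5 after median centring, 1 with a floor at 32 and 0 with the meningeal and fibroblast marker mean as a covariate. Leaving out 1 animal gave 0 to 2. Against LMN, 5 were called. The count was 0 with no replicate block, 8 with a random block or quantile normalization, 3 with either technical set alone, without dim or suffixed probe sets, with the floor or with only the compared pools, 0 with the covariate, and 2 to 4 without 1 animal. Against MMN, 0 were called, 1 with a random block and 0 to 1 without 1 animal (1 without animal 2). Between LMN and MMN, 0 were called under every alternative run.

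With the covariate the median over the members became 0.0208 against somatic samples and 0.0633 against LMN, and Ndufa10 against LMN also became 0.0633. It became -0.03 against MMN and moved from -0.02 to -0.12 between LMN and MMN. That model called 0 of all probe sets in every comparison, and its median SE was 2.33 times as large against somatic samples and 2.68 times against LMN. The median between LMN and MMN ran from -0.0654 to 0.0089 without 1 animal, above 0 without animal 5. The other medians stayed negative under all other alternatives, with -0.20 to -0.08 against somatic samples and the same range against MMN without 1 animal. The cause of these changes was not tested. Cycs kept its call against somatic samples in 12 of 16 alternatives and Ndufab1 and Atp5c1 in 7 of 16 and 7 of 15. Against LMN, Cycs and Ndufab1 each kept it in 14 of 17, Ndufa10 in 6 of 17, Ndufaf1 in 9 of 15 and Cox6b2 in 5 of 15. With 5 animals, pools of captured cells and no detection calls, differences near 0.1 could not be resolved for single members.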
